A study of Rattus norvegicus with 15 samples.

Results

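The 8 genes described here encode 3 subunits of the NMDA receptor (Grin1, Grin2a, Grin2b), the scaffold of the excitatory synapse (Dlg4), 2 proteins of the transmitter-releasing terminal (Snap25, Syn1), a protein of dendritic microtubules (Map2) and the neurotrophin Bdnf. They were taken by Ensembl gene ID from a count table of 15094 genes, and all 8 IDs were present and passed the filter on low counts. The table does not pair IDs with names, so the names are those given with the choice of IDs and could not be checked against the table. Their expression was measured by RNA sequencing of brain tissue, with basal ganglia cells given as the cell type, from Sprague-Dawley rats 72 h after modelling. The groups were Sham (sham operation, 5 libraries), ICH (intracerebral hemorrhage, bleeding into the brain, 3 libraries: replicates 1, 2 and 5) and ICH_MA (intracerebral hemorrhage followed by mithramycin A, 3 libraries: replicates 1, 2 and 3). Mithramycin A is a drug known to bind GC-rich DNA and to displace transcription factors of the Sp1 family. The design names 5 rats per group, and of the 15 samples with labels 4 have no values here. The sources at hand do not state how hemorrhage was induced, the dose of the drug, or the age and sex of the rats.

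The NMDA receptor is a glutamate-gated channel that admits calcium. It is built from the obligatory GluN1 subunit (Grin1) and GluN2 subunits, of which GluN2A (Grin2a) and GluN2B (Grin2b) predominate in the adult forebrain, and PSD-95 (Dlg4) anchors it in the postsynaptic density. Glutamate released near a hemorrhage can overactivate this receptor, a process called excitotoxicity, and Bdnf is a survival and plasticity factor of neurons that the striatum receives largely from cortical axons.

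After hemorrhage, 7 of the 8 genes fell and none rose. Bdnf fell most, to 38.5% of its Sham level, followed by Grin2a (59.1%), Snap25 (65.9%), Map2 (75.1%), Syn1 (75.1%), Grin2b (77.3%) and Grin1 (80.6%). Dlg4, at 87.1% of Sham, did not pass the test. A gene was called changed at an adjusted p under 0.05 in edgeR's quasi-likelihood test over all 14963 genes tested, of which 9.44% were called lower in ICH. The median log2 fold change of the 8 genes was −0.41, against 0.0039 for all genes tested. With mithramycin A all 8 genes had means between those of ICH and Sham. The share of all genes tested with such means was not computed. None of the 8 passed between ICH_MA and ICH, and Grin2b and Bdnf were still called lower than in Sham. The tissue is bulk, and the values are relative to all counts of a library. Fewer neurons, less RNA per neuron and more RNA from other cells therefore cannot be told apart. Markers of neurons, glia and blood cells were not analysed here, because the reference genes carried no Ensembl IDs to match.

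Some libraries stood apart within their groups. Sham replicate 1 was the lowest Sham library for 6 of the 8 genes, and ICH replicate 5 was the highest ICH library for 7 of the 8. The groups overlapped in depth, at 56393423 to 67733469 counts per Sham library, 58317912 to 65438000 per ICH library and 57164791 to 66381416 per ICH_MA library. Without both Sham replicate 1 and ICH replicate 5, all 8 genes were called lower in ICH than in Sham, and so were 14.2% of all genes tested. Since these are the lowest Sham and the highest ICH library for most of the genes, and were singled out from an earlier look at these data, leaving out the pair moves the groups apart by construction, and its calls here and below support nothing. Together the 8 genes took 0.369% ± 0.031 of all counts in Sham (mean and SD of 5 libraries), compared with 0.285% ± 0.019 in ICH and 0.319% ± 0.025 in ICH_MA (3 libraries each).

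**Figure D1:**
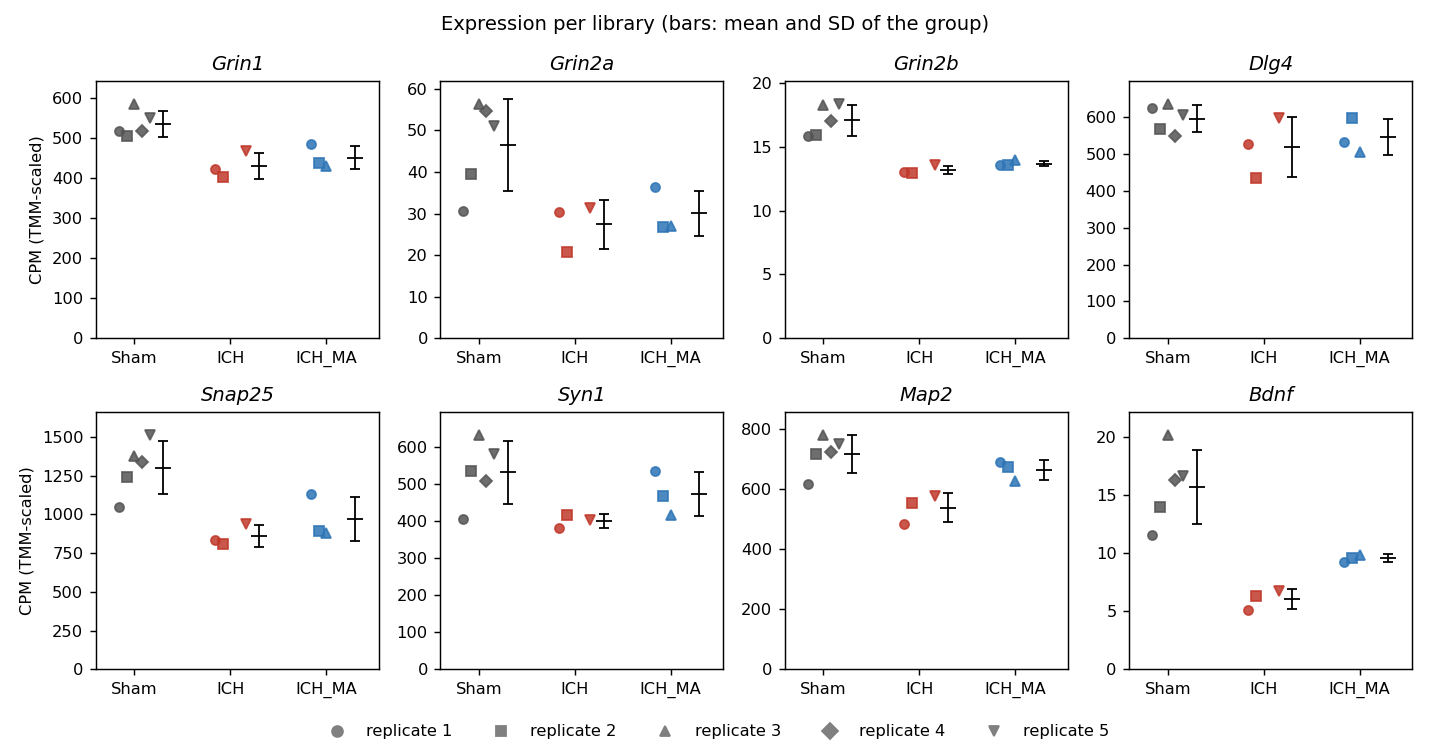
Expression of the 8 genes in each library, in CPM (counts scaled to a common library total, with TMM), by group, with symbols for replicates and bars for the mean and SD of a group. Bdnf in ICH (5.12 to 6.72 CPM) and in ICH_MA (9.27 to 9.88 CPM) lies below every Sham library (11.6 to 20.2 CPM), and Dlg4 overlaps between all groups.

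Grin1 (ENSRNOG00000011726) encodes the GluN1 subunit that every NMDA receptor contains. Its level in CPM, which are counts scaled to a common library total with TMM, was 517, 504, 583, 517 and 549 in Sham replicates 1 to 5 and 422, 403 and 466 in ICH replicates 1, 2 and 5. In ICH_MA replicates 1, 2 and 3 it was 484, 438 and 430 CPM. Every ICH and every ICH_MA library lay below every Sham library, and the ICH and ICH_MA ranges overlapped. The groups of ICH and Sham did not overlap, with ICH lower, for 5 of the 8 genes (Grin1, Grin2b, Snap25, Map2 and Bdnf), against 10.9% of all genes tested. Grin1 fell from a mean of 534 ± 32.3 CPM in Sham (SD, n = 5) to 430.4 ± 32.7 in ICH (n = 3), or −0.31 ± 0.07 (SE) on the log2 scale (edgeR adjusted p = 0.00827). This call held in all 19 alternatives tried.

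Mithramycin A acts at GC-rich DNA, so the start regions of the genes were searched for the GC box, the core Sp1 motif, written GGGCGG or CCGCCC on the other strand. RefSeq start windows on build GRCr8, 250 bases before to 50 after a start, were given for 5 of the 8 genes (Grin1, Dlg4, Syn1, Map2 and Bdnf, 10 windows in all). A GC box was found in 33.1% of all 33469 windows. Grin1 and Syn1 each held 1 GC box, just after the start, and 1 of 6 Bdnf windows held 2. The windows of Dlg4 and Map2 held none. A match to letters is a description and not a site of binding. The sites of Grin1 (chr3:28528708-28528737, minus strand) and Syn1 (chrX:3725765-3725794, plus strand) are shown, with the GC box in capitals, because they hold the only GC box in the window of each gene.
Grin1 site: gtcaggaagcggGGGCGGtgggaggggtag
Syn1 site: gctcctgagccccttgcgctCCGCCCccgc

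Grin2a (ENSRNOG00000033942) encodes GluN2A, the subunit that gives the receptor faster kinetics. Its levels were 30.6, 39.6, 56.2, 54.7 and 51.1 CPM in Sham replicates 1 to 5 and 30.4, 20.7 and 31.2 CPM in ICH replicates 1, 2 and 5. In ICH_MA replicates 1, 2 and 3 they were 36.4, 26.8 and 27.1 CPM. It was the most variable of the 8 genes among Sham libraries, with an SD of 23.7% of the mean, and ICH replicate 5 lay just above Sham replicate 1. Grin2a fell from 46.4 ± 11 CPM in Sham (SD, n = 5) to 27.4 ± 5.88 in ICH (n = 3), or −0.76 ± 0.21 (SE) on the log2 scale (edgeR adjusted p = 0.0241). This call was lost without ICH replicate 1 (adjusted p = 0.0551) and without ICH replicate 2 (adjusted p = 0.101).

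Grin2b (ENSRNOG00000008766) encodes GluN2B, the subunit that predominates early in development and gives slowly decaying currents. Sham replicates 1 to 5 had 15.8, 15.9, 18.2, 17 and 18.3 CPM, and ICH replicates 1, 2 and 5 had 13, 13 and 13.5 CPM. ICH_MA replicates 1, 2 and 3 had 13.5, 13.6 and 13.9 CPM. All 6 hemorrhage libraries fell within a narrow band below the Sham range. These levels rested on 773 to 1138 counts per library. Grin2b fell from 17 ± 1.21 CPM in Sham (SD, n = 5) to 13.2 ± 0.314 in ICH (n = 3), or −0.37 ± 0.07 (SE) on the log2 scale (edgeR adjusted p = 0.00505). This call also held in all 19 alternatives.

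Dlg4 (ENSRNOG00000018526) encodes PSD-95, the scaffold that ties NMDA receptors to signalling proteins. Its levels were 623, 568, 634, 549 and 604 CPM in Sham replicates 1 to 5 and 526, 433 and 597 CPM in ICH replicates 1, 2 and 5. In ICH_MA replicates 1, 2 and 3 they were 533, 599 and 506 CPM. ICH replicates 1 and 2 lay below every Sham library, whereas replicate 5 lay within the Sham range. The log2 fold change in ICH was −0.20 with SE 0.10, and it did not pass (edgeR adjusted p = 0.16). Single libraries moved it in both directions. Without ICH replicate 5, the highest ICH library, it was −0.31 and passed (edgeR adjusted p = 0.03). Without ICH replicate 2, the lowest, it was −0.085 (edgeR adjusted p = 0.527). Leaving out either of these libraries moves the difference by construction.

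Snap25 (ENSRNOG00000006037) encodes a SNARE protein that drives fusion of synaptic vesicles with the membrane of the terminal. Sham replicates 1 to 5 had 1048, 1241, 1377, 1338 and 1511 CPM, and ICH replicates 1, 2 and 5 had 834, 806 and 938 CPM. ICH_MA replicates 1, 2 and 3 had 1132, 894 and 881 CPM. All ICH libraries lay below the Sham range, and so did ICH_MA replicates 2 and 3, while ICH_MA replicate 1 lay above Sham replicate 1. Snap25 fell from 1303 ± 172 CPM in Sham (SD, n = 5) to 859 ± 69.5 in ICH (n = 3), or −0.60 ± 0.12 (SE) on the log2 scale (edgeR adjusted p = 0.00499). The call held in all 19 alternatives.

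Syn1 (ENSRNOG00000010365) encodes synapsin I, which tethers the reserve pool of synaptic vesicles. Its levels were 405, 536, 631, 508 and 580.0 CPM in Sham replicates 1 to 5 and 380.4, 417 and 402 CPM in ICH replicates 1, 2 and 5. In ICH_MA replicates 1, 2 and 3 they were 536, 467 and 416 CPM. The ICH libraries lay close together at the bottom of the Sham range and overlapped it through Sham replicate 1. Syn1 fell from 532 ± 85.1 CPM in Sham (SD, n = 5) to 399.6 ± 18.2 in ICH (n = 3), or −0.41 ± 0.13 (SE) on the log2 scale (edgeR adjusted p = 0.0354). The call was the least stable of the 7. Over 19 alternatives the log2 fold change ran from −0.52 to −0.36, and the call was lost in 9 with adjusted p up to 0.145. These included leaving out Sham replicates 2, 3 and 5 (adjusted p = 0.0639, 0.061 and 0.0652), ICH replicates 1, 2 and 5 (adjusted p = 0.127, 0.0743 and 0.0625) and ICH_MA replicate 2 (adjusted p = 0.0503), and scaling by library totals alone (edgeR adjusted p = 0.053).

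The Syn1 window was among the most GC-rich, with 71% G and C, above 93% of all windows. It is shown because it was the only one of the 10 to hold a full cAMP response element, the palindrome TGACGTCA, known as a binding motif of CREB and found in 1.83% of all windows. The element is capitalised and begins at position −190, counted so that −1 is the last base before the start. The stretch is chrX:3725495-3725744 on the plus strand of GRCr8.
Syn1 upstream: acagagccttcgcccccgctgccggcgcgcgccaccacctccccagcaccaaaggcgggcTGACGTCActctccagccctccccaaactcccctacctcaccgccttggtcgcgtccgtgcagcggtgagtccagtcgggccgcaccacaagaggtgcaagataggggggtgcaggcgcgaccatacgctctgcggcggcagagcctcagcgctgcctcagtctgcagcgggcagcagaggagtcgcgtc

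Map2 (ENSRNOG00000011841) encodes a microtubule-associated protein confined largely to dendrites and cell bodies of neurons, and its loss is a common histological sign of injured dendrites. Sham replicates 1 to 5 had 616, 717, 781, 726 and 751 CPM, and ICH replicates 1, 2 and 5 had 485, 555 and 577 CPM. ICH_MA replicates 1, 2 and 3 had 692, 673 and 627 CPM. ICH lay below Sham without overlap, and all 3 ICH_MA libraries lay above all 3 ICH libraries. The ICH_MA libraries overlapped the Sham range only through Sham replicate 1 (616 CPM) and lay below Sham replicates 2 to 5. Map2 fell from 718 ± 62 CPM in Sham (SD, n = 5) to 539 ± 48.1 in ICH (n = 3), or −0.41 ± 0.08 (SE) on the log2 scale (edgeR adjusted p = 0.00475). This call held in all 19 alternatives.

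Bdnf (ENSRNOG00000047466) encodes brain-derived neurotrophic factor, the ligand of the TrkB receptor, whose transcription is known to follow neuronal activity. Its levels were 11.6, 14, 20.2, 16.3 and 16.6 CPM in Sham replicates 1 to 5 and 5.12, 6.33 and 6.72 CPM in ICH replicates 1, 2 and 5. In ICH_MA replicates 1, 2 and 3 they were 9.27, 9.61 and 9.88 CPM. The 3 groups did not overlap: every ICH library was lowest, every ICH_MA library intermediate and every Sham library highest. The values rested on 306 to 444 counts per library in ICH and 775 to 1259 in Sham. Bdnf fell from 15.7 ± 3.21 CPM in Sham (SD, n = 5) to 6.06 ± 0.832 in ICH (n = 3), or −1.38 ± 0.17 (SE) on the log2 scale (edgeR adjusted p = 0.000458). Only 0.227% of the genes tested had a lower log2 fold change, and the call held in all 19 alternatives (adjusted p up to 0.00574).

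Bdnf is transcribed from several promoters, each with its own first exon, and counts per gene do not tell them apart. Of its 6 RefSeq windows, window 3 by position (chr3:116621721-116621970 before the start, plus strand, GRCr8) held both GC boxes, with first bases at −62 and −43. Window 4 (chr3:116637608-116637857, plus strand) held the short core of a cAMP response element, CGTCA or TGACG on the other strand, at −35. This core lies within the full element and was found in 21.2% of all windows. It was also found 3 times in the Grin1 window, at −172, −10 and 17, and 2 times in the Syn1 window, both within the full element. Both stretches are shown because Bdnf changed most, with the GC boxes capitalised in the first and the core in the second.
Bdnf window 3: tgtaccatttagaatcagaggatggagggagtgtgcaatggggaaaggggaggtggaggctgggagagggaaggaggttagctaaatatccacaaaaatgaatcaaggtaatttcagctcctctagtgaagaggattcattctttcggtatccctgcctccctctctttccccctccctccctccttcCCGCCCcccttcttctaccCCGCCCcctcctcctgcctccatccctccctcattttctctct
Bdnf window 4: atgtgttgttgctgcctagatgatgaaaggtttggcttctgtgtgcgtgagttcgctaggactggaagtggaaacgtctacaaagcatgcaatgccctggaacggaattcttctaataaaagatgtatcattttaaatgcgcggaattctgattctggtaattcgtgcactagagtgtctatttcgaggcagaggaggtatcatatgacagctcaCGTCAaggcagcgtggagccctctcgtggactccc

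**Figure D2:**
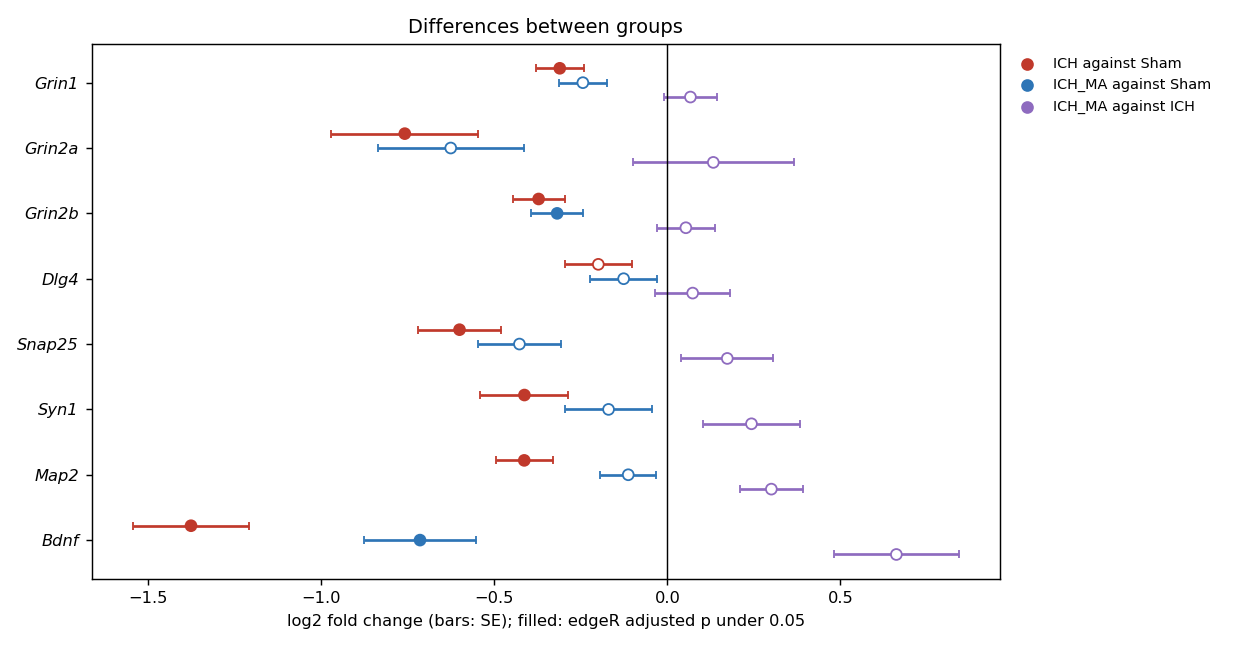
Log2 fold changes of the 8 genes (horizontal axis, bars for SE) in ICH against Sham, ICH_MA against Sham and ICH_MA against ICH, with filled points for edgeR adjusted p under 0.05. All 8 genes lie below 0 in both comparisons with Sham and above 0 in ICH_MA against ICH, where no point is filled. Over all genes tested, 49.3%, 50.7% and 54.3% lay below 0, in the order of comparisons given.

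The next comparison asked whether the drug altered these genes after hemorrhage. No gene of the table was called between ICH_MA and ICH with edgeR (0 of 14963, or 0%, 3 against 3 libraries) or limma-voom (0), whereas DESeq2 called 477 and 15.5% of genes had an unadjusted p under 0.05. This count depended on 1 library. When ICH replicate 5 was left out, 1137 genes passed in edgeR, of which 286 were higher in ICH_MA and 851 were lower. Among them were 0 of the 8 genes, which says little where only a small part of all genes passed. All 8 genes had higher means in ICH_MA than in ICH, with a median log2 fold change of 0.15 against −0.02 for all genes tested. Of all genes tested, 54.3% had a log2 fold change below 0 in this comparison. Their directions are not separate observations, since the genes share the same 6 libraries. ICH_MA lay above ICH without overlap for 3 of the 8 genes (Grin2b, Map2 and Bdnf), against 7.87% of all genes tested.

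Bdnf had the largest difference between treated and untreated hemorrhage, with 9.59 ± 0.308 CPM in ICH_MA and 6.06 ± 0.832 CPM in ICH (SD, n = 3 each), or 0.66 ± 0.18 (SE) on the log2 scale (edgeR adjusted p = 0.176). Map2 followed, with 664 ± 33.4 CPM against 539 ± 48.1 CPM, or 0.30 ± 0.09 (SE) on the log2 scale (edgeR adjusted p = 0.197). DESeq2 called both (adjusted p = 0.0306 for Bdnf and 0.0491 for Map2), and so did edgeR without both Sham replicate 1 and ICH replicate 5 (adjusted p = 0.0214 and 0.0229). Without ICH replicate 5 alone, neither passed with edgeR (adjusted p = 0.0539 for Bdnf and 0.0591 for Map2). Over all alternatives adjusted p ran from 0.0214 to 0.486 for Bdnf and from 0.0229 to 0.557 for Map2. The presynaptic genes had log2 fold changes of 0.24 (SE 0.14) for Syn1 and 0.17 (SE 0.13) for Snap25 (edgeR adjusted p = 0.429 and 0.559). Without ICH_MA replicate 1 these were 0.14 for Syn1 and 0.047 for Snap25. It was the highest ICH_MA library for both genes, so leaving it out lowers the differences by construction.

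The differences of the receptor subunits and their scaffold between treated and untreated hemorrhage were smaller than their SEs. Grin2b was at 13.7 ± 0.218 CPM in ICH_MA and 13.2 ± 0.314 in ICH (SD, n = 3 each). Its log2 fold change was 0.05, with a nominal 95% interval of −0.11 to 0.22. Its ICH_MA libraries did not overlap the ICH libraries, but the highest ICH library and the lowest ICH_MA library both stood at 13.5 CPM. For Grin1 the log2 fold change was 0.07 with an interval of −0.08 to 0.22, and for Dlg4 it was 0.07 with an interval of −0.14 to 0.29. Grin2a had a log2 fold change of 0.13 and the widest interval, −0.32 to 0.59. Without ICH replicate 2 the log2 fold changes of Grin2a and Dlg4 were −0.035 and −0.041, and without ICH_MA replicate 1 that of Grin2a was −0.026. These directions thus changed with single libraries. ICH replicate 2 was the lowest ICH library for both genes, and ICH_MA replicate 1 the highest ICH_MA library for Grin2a. Leaving out such a library lowers the difference by construction. For Grin1 the log2 fold change ran from 0.012 without ICH_MA replicate 1 to 0.13 without ICH replicate 5, each the highest library of its group. The intervals come from the SE of each gene with a normal quantile, so with few libraries they are narrower than the edgeR test would give. They are not adjusted for the number of genes.

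Treated hemorrhage was then compared with the sham operation. Bdnf and Grin2b were called lower in ICH_MA, 2 of the 8 genes, against 1.67% of the genes tested. The groups did not overlap, with ICH_MA lower, for 3 of the 8 (Grin1, Grin2b and Bdnf), against 7.2% of the genes tested. Bdnf stood at 60.9% of its Sham level, or −0.71 ± 0.16 (SE) on the log2 scale (edgeR adjusted p = 0.0256), and Grin2b at 80.2%, or −0.32 ± 0.07 (SE) on the log2 scale (edgeR adjusted p = 0.0293). Both calls were lost without Sham replicate 4 (adjusted p = 0.0579 for Bdnf and 0.0596 for Grin2b), without Sham replicate 5 (0.0583 and 0.0651) and without ICH_MA replicate 1 (0.0829 and 0.0849), 2 (0.0963 and 0.11) or 3 (0.0757 and 0.0776). The Grin2b call was also lost without Sham replicate 3 (edgeR adjusted p = 0.067). Where leaving out a library lost the call, the log2 fold change was −0.74 to −0.69 for Bdnf and −0.33 to −0.30 for Grin2b.

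Of the other 6 genes, Snap25 and Grin1 came closest, at 74.4% and 84.4% of Sham (edgeR adjusted p = 0.0568 and 0.0579), and Grin2a stood at 64.8% (adjusted p = 0.104). DESeq2 called these 3 as well (adjusted p = 0.006, 0.00895 and 0.0249). It also called more of all genes tested lower, 700 compared with 250 in edgeR. With edgeR, Snap25 passed without Sham replicate 1 (adjusted p = 0.0154), without ICH replicate 5 (0.0466) or without ICH_MA replicate 1 (0.0437), Grin1 passed without ICH replicate 5 (0.0332) or with the ICH libraries kept out of the model (0.0387), and Grin2a passed without Sham replicate 1 (0.0252). Sham replicate 1 was the lowest Sham library for Snap25 and Grin2a, and ICH_MA replicate 1 was the highest ICH_MA library for Snap25. Leaving out such a library moves the groups apart by construction. Snap25, Grin1 and Grin2a also passed without both Sham replicate 1 and ICH replicate 5 (edgeR adjusted p = 0.0105, 0.0311 and 0.0191). Map2, Dlg4 and Syn1 stood at 92.5%, 91.6% and 88.9% of Sham and did not pass in any alternative (edgeR adjusted p = 0.456, 0.488 and 0.469). The order of the group means was the same for all 8 genes, with Sham highest, ICH_MA next and ICH lowest. How common this order was among all genes tested was not computed. The step from ICH to ICH_MA did not pass for any of the 8 genes, and the step from ICH_MA to Sham passed for Grin2b and Bdnf. ICH_MA and Sham were both compared with the same ICH libraries, and ICH and ICH_MA with the same Sham libraries, so the comparisons are not independent of each other.

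**Figure D3:**
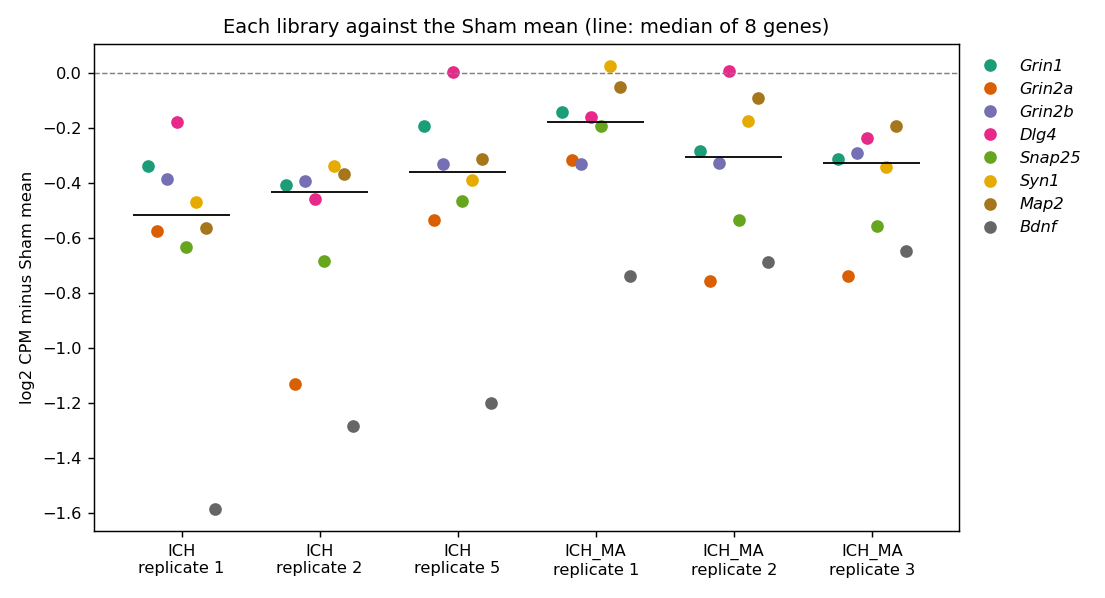
Each hemorrhage library as the difference of its log2 CPM from the Sham mean (vertical axis), with a point per gene and a line at the median of the 8 genes. The medians are −0.51, −0.43 and −0.36 in ICH replicates 1, 2 and 5 and −0.18, −0.31 and −0.33 in ICH_MA replicates 1, 2 and 3, and Bdnf is the lowest gene in every library except ICH_MA replicates 2 and 3, where Grin2a is lowest.

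The libraries within a group differed in how far the genes lay below Sham. In ICH, 8, 7 and 6 of the 8 genes lay below every Sham library in replicates 1, 2 and 5, against 29.9%, 28.8% and 21.6% of all genes tested. In ICH_MA the numbers were 4, 5 and 6 in replicates 1, 2 and 3, against 21%, 23.4% and 22.5% of all genes tested. ICH_MA replicate 1 had the highest levels of its group for 5 genes, among them Snap25 and Syn1, and its median log2 difference from the Sham mean was −0.18. The medians of ICH_MA replicates 2 and 3, at −0.31 and −0.33, were nearer to the −0.36 of ICH replicate 5 than to that of ICH_MA replicate 1. Bdnf was an exception, with log2 differences of −1.59, −1.29 and −1.20 in the ICH libraries and −0.74, −0.69 and −0.65 in the ICH_MA libraries. Map2 also lay higher in every ICH_MA library than in any ICH library, at −0.05, −0.09 and −0.19 against −0.56, −0.37 and −0.31. Grin2b did so only narrowly.

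Ratios of 2 genes within a library do not depend on how libraries are scaled, and they were used to ask whether the genes kept their proportions. A total of 4 ratios were compared in 3 pairs of groups, 12 tests in all, by exact two-sided permutation of libraries. The smallest p possible was 0.0357 for 3 against 5 libraries and 0.1 for 3 against 3, so no ratio could pass after adjustment over the 12 tests. The ratio of Grin2a to Grin2b counts was 1.93, 2.49, 3.08, 3.22 and 2.79 in Sham replicates 1 to 5 and 2.34, 1.59 and 2.31 in ICH replicates 1, 2 and 5. In ICH_MA replicates 1, 2 and 3 it was 2.69, 1.98 and 1.95. The groups overlapped, and the mean log2 ratio was lower in ICH than in Sham, a difference of −0.38 (exact permutation p = 0.179, adjusted p = 0.571).

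The ratio of Grin2b to Grin1 had the smallest SD of the 4 ratios in Sham and in ICH, though not in ICH_MA, with mean log2 ratios of −4.97 ± 0.052 in Sham (SD, n = 5), −5.03 ± 0.076 in ICH and −5.04 ± 0.11 in ICH_MA (SD, n = 3 each). The difference between ICH and Sham was −0.06 (exact permutation p = 0.286, adjusted p = 0.571). For Dlg4 to Syn1, a postsynaptic against a presynaptic gene, the difference between ICH and Sham was 0.19 (exact permutation p = 0.536, adjusted p = 0.714). Snap25 to Syn1 was the one ratio whose groups separated. Its values as a ratio of counts were 2.59, 2.31, 2.18, 2.63 and 2.61 in Sham replicates 1 to 5 and 2.11, 1.92 and 2.12 in ICH_MA replicates 1, 2 and 3, with ICH at 2.19, 1.93 and 2.33 in replicates 1, 2 and 5. All ICH_MA libraries lay below all Sham libraries, a mean difference of −0.26 in log2 ratio (exact permutation p = 0.0357, the smallest possible, adjusted p = 0.429), and in ICH the difference from Sham was −0.19 (exact permutation p = 0.179, adjusted p = 0.571).

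**Figure D4:**
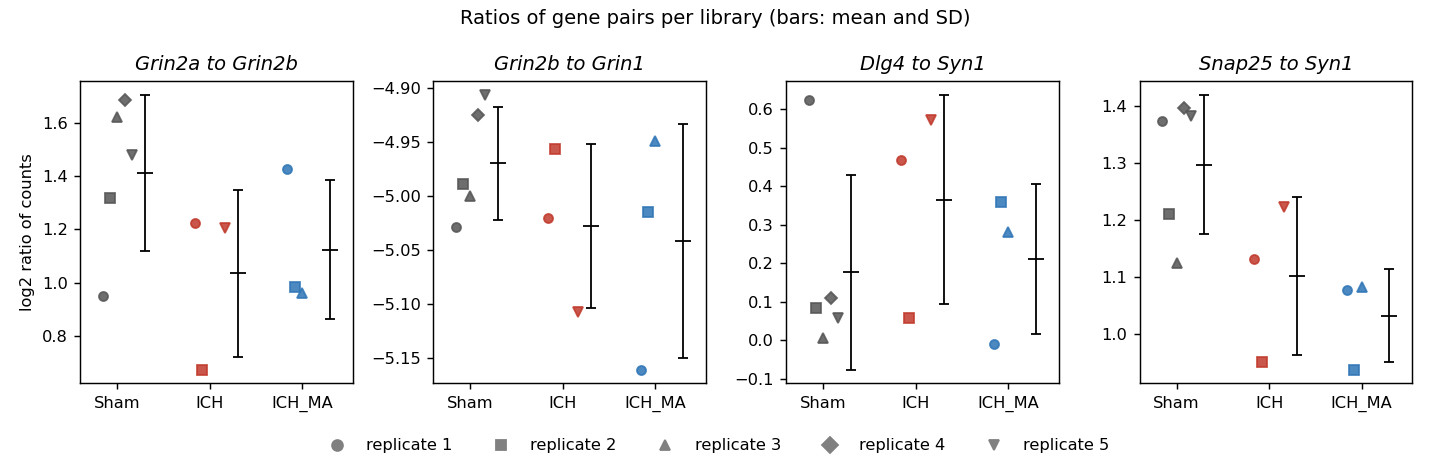
Log2 ratios of counts of 4 gene pairs (vertical axes, which do not start at 0) in each library, by group, with bars for the mean and SD. For Snap25 to Syn1 the highest ICH_MA library (1.08) lies below the lowest Sham library (1.13), and for the other pairs all groups overlap.

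The genes followed their shared pattern to different degrees. Taking the mean of the 8 genes' centred log2 CPM in each of the 11 libraries as that pattern, Snap25 lay nearest to it, with a root mean square difference of 0.0803, followed by Grin2b (0.109), Map2 (0.115), Grin1 (0.121) and Syn1 (0.123). Dlg4 (0.202), Grin2a (0.225) and Bdnf (0.357) lay farthest, Dlg4 having changed less and Grin2a and Bdnf more than the mean. Outside the list, the nearest genes were ENSRNOG00000021984 (0.0528) and ENSRNOG00000001851 (0.0596), for which no names were at hand. ENSRNOG00000021984 had group means of 104.4 CPM in Sham, 72.8 in ICH and 87 in ICH_MA, and ENSRNOG00000001851 had 41.4, 29.1 and 32 CPM. Levels were not compared between genes, because transcript lengths of the counted annotation were not used here.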

How the data were processed

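The authors deposited whole-number, unnormalized counts per gene for 11 of the 15 labelled samples, and each column was tied to a sample through the library name given in its label. The submitters' processing notes list Bowtie2, RSEM 1.3.1 and DESeq2 1.4.5 and the build mRatBN7.2, without roles. Neither the annotation, strandedness nor rounding is stated there, so reads of overlapping or antisense genes could be mixed.

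Genes were filtered with filterByExpr (minimum count 10, minimum total 15), which kept 14963 of 15094. After TMM scaling, 1 quasi-likelihood model over all libraries, with group as the only factor, was fitted in edgeR 4.0.16 (R 4.3.3). Benjamini-Hochberg adjustment ran over all genes tested. SEs came from the same test, and the nominal 95% intervals are 1.96 SE on each side, which makes no allowance for the few libraries. CPM used TMM-scaled totals, and log2 CPM a prior count of 2. Ratios were tested with scipy 1.17.1. Alternatives were DESeq2 1.42.0, limma-voom (limma 3.58.1), other scalings, no filter, only the groups compared, a replicate block and leaving out libraries. The tests were tested on simulated data. Libraries are taken as separate rats, as the design implies, and no 2 libraries were identical. All samples carry 1 batch date. Lists of other synaptic genes and of cell type markers hold symbols. The 47357 reference genes carried no Ensembl IDs, so no match was possible and these lists were not tested. The 8 genes, the ratios and the lists were chosen with earlier results of these data known. The named genes are the 8 chosen, whatever their values, and the 2 genes with the nearest pattern. Promoter windows were matched by symbol to RefSeq, build GRCr8, which is not the build of the counts.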

Additional observations from a re-analysis of the deposited data

Results flagged for a closer look

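The log2 ratio of Dlg4 to Syn1 counts in Sham replicate 1 was 0.62, far from the 0.01 to 0.11 of the other Sham libraries. The gap was 0.831 of the range of the 5 values, where 0.71 is the critical ratio, and 1 of the 14 sets of Sham values examined stood out in this way, where chance marks about 1 in 20. In this library Syn1 was the lowest of the Sham group (405 CPM) and Dlg4 was among the highest (623 CPM). Without it, the difference between ICH and Sham in this ratio was 0.30, against 0.19 with all libraries.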

How the results depend on the processing

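The 24 differences of the 8 genes were recomputed in 19 alternatives each. In ICH against Sham the direction never changed, 138 of 152 values stayed on their side of the threshold, 12 lost it and 2 passed it. In ICH_MA against Sham 127 of 152 stayed, 13 lost it and 12 passed it, also with no change of direction. In ICH_MA against ICH 145 of 152 stayed, 4 passed it and 3 changed direction. Numbers of all genes called in ICH against Sham were 3662 with all libraries, 1992 to 4940 when libraries were left out, and 1914 with the replicate block. In ICH_MA against ICH they were 0 with all libraries, 477 with DESeq2 (2 of the 8 genes), and 0 to 1384 when libraries were left out (0 to 2 of the 8 genes). In ICH_MA against Sham they were 998 with all libraries, 1830 with DESeq2 (5 of the 8 genes), 1541 with only these groups in the model, 117 with the replicate block (0 of the 8 genes), and 348 to 2008 when libraries were left out (0 to 5 of the 8 genes). The most calls in each range came without both Sham replicate 1 and ICH replicate 5. Single libraries moved these numbers by over 1.5 times. In ICH against Sham, 1992 genes were called without ICH replicate 1 and 2231 without ICH replicate 2. In ICH_MA against ICH, 1137 were called without ICH replicate 5 and 1 without Sham replicate 1. In ICH_MA against Sham, 545 to 577 were called without Sham replicate 2, 3, 4 or 5, 348 to 506 without 1 ICH_MA replicate, and 1575 without ICH replicate 5. Deviations of same-numbered libraries from their group means had correlations of −0.156 to 0.0853 over 8 pairs, none above 0.1. Pairs with different numbers were not set beside them, so whether these libraries share more than a number was not tested. The replicate block in ICH against Sham left 5 of the 8 genes called, without Grin2a and Syn1. Scaling by library totals alone raised the share of rises among all genes called from 61.4% to 75.7% in ICH against Sham and from 74.9% to 85% in ICH_MA against Sham, and all 8 genes kept their direction in both. In ICH_MA against ICH, leaving out libraries gave log2 fold changes of −0.035 to 0.24 for Grin2a and −0.041 to 0.19 for Dlg4. It gave log2 ratio differences of −0.092 to 0.18 for Grin2a to Grin2b and −0.060 to 0.046 for Grin2b to Grin1. For Dlg4 to Syn1 in ICH_MA against Sham the difference ran from −0.040 to 0.15, and was −0.027 between same-numbered libraries (replicate block). Of 124 recomputed ratio differences, 116 kept their direction. The cause of these changes was not tested. Grin2b and Bdnf rest on the fewest counts, from 306 upward per library, and with 3 libraries in a group small differences may be missed.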
